A study of Mus musculus with 9 samples.

Results

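The genes described here are 10 genes that take part in the response to low oxygen and in glycolysis. They are Vegfa, Slc2a1, Hk2, Pfkl, Aldoa, Gapdh, Pgk1, Eno1, Ldha and Pdk1, listed by name as targets of the hypoxia-inducible factors (HIFs) and steps of glucose breakdown, with earlier results of these data known. All 10 were among the 43629 genes of the deposited count table and among the 14567 genes with enough counts to be tested.

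RNA sequencing was carried out on 9 cultures of mouse embryonic fibroblasts (MEFs) to ask which genes change in Dp1Tyb cells, a mouse model of Down syndrome. The 4 WT and 5 Dp1Tyb cultures came from littermate E14.5 embryos of strain C57BL/6J.129P2, with 1 culture per embryo. Dp1Tyb, in full Dp(16Lipi-Zbtb21)1TybEmcf, carries a duplication on chromosome 16 from Lipi to Zbtb21, and WT littermates do not. Head and viscera were removed, so the cultures started from mixed cells of the rest of the embryo, and all 9 were grown for 2 passages in the same medium with 10% serum and received no treatment. No source used here states the oxygen, glucose or cell density of the cultures.

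HIF is made of an oxygen-sensitive alpha subunit and a stable partner, ARNT. When oxygen is plentiful, prolyl hydroxylases (Egln1, Egln2 and Egln3) mark the alpha subunit, the VHL complex binds it and it is degraded. When oxygen is scarce, the alpha subunit persists, enters the nucleus and raises the transcription of genes for glucose uptake, glycolysis, lactate production and blood vessel growth. Fibroblasts in culture use glycolysis heavily, and growth factor signalling and MYC act on many of the same genes.

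Each culture gave between 24804539 and 30009361 counts, and the 10 genes had between 649 and 45635 counts in a culture, so that counting error was at most 3.93% of a value. Levels are given in CPM, the counts out of 1000000 of a library scaled by edgeR's TMM factors. Sums over a list of markers are in CPM of the total counts, without these factors. The labels matched the dosage of the duplicated region. The median of its 89 tested genes lay between 0.48 and 0.54 above the WT mean on the log2 scale in the Dp1Tyb cultures and between -0.027 and 0.041 in the WT cultures. A pair of cultures stood apart from the others over the whole table. Dp1Tyb replicate 2 was the highest culture for 27.1% of all genes tested and the lowest for 27.0%, and WT replicate 1 was the highest for 24.9% and the lowest for 23.2%. Sample names start with MEF1 for WT replicate 1 and Dp1Tyb replicate 1 and with MEF2 for the other 7 cultures, and values within MEF2 are given beside several results and, for the fold change of each of the 10 genes, among the alternatives.

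HIF binds a short core, ACGTG or GCGTG, on either strand. Each of the 10 genes had RefSeq promoter windows (GRCm38.p6), and the 250 bases before the first listed start held at least 1 core in 8 of the 10, against 38.6% of the first windows of 27025 genes. ACGTG was found in 4 of the 10, Slc2a1, Hk2, Pgk1 and Ldha, against 16.6% of genes. The windows of these 4 are shown first because they hold ACGTG. Those of Pdk1 and Vegfa follow because these 2 genes moved less across the cultures. Pfkl, Aldoa, Gapdh and Eno1, whose windows are not shown, held no ACGTG in the first window. They moved with the 4 all the same, with a Pearson r with Eno1 of 0.975 for Pfkl, 0.993 for Aldoa and 0.901 for Gapdh. For the 4 this r was between 0.976 and 0.994. Capitals mark a core on either strand, and each window runs 5′ to 3′ in the direction of transcription and ends just before the start.
Slc2a1, chr4:119108495-119108744, plus strand: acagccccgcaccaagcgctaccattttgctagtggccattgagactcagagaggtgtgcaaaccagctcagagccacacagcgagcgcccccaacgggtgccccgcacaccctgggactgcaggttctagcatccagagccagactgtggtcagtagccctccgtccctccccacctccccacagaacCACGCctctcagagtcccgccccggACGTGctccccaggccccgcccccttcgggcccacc
Hk2, chr6:82774455-82774704, minus strand: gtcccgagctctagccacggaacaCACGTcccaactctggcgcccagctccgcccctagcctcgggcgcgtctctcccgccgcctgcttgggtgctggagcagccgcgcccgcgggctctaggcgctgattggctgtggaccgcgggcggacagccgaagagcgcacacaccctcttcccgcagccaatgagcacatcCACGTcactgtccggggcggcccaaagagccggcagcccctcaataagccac
Pgk1, chrX:106186850-106187099, plus strand: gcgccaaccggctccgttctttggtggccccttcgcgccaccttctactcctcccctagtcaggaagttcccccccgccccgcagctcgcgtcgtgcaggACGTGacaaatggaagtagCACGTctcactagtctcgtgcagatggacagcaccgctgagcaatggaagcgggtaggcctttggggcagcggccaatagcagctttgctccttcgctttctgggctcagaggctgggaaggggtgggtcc
Ldha, chr7:46845554-46845803, plus strand: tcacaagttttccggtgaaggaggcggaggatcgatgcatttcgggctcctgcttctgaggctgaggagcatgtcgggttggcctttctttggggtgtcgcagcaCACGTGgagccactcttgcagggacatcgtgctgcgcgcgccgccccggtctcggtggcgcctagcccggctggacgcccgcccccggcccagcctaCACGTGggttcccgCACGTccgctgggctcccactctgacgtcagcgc
Pdk1, chr2:71872974-71873223, plus strand: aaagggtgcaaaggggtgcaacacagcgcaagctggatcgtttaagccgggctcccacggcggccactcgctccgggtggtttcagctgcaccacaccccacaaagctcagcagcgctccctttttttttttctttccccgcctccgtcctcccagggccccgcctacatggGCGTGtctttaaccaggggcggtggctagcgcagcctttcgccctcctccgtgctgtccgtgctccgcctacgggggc
Vegfa, chr17:46032378-46032627, minus strand: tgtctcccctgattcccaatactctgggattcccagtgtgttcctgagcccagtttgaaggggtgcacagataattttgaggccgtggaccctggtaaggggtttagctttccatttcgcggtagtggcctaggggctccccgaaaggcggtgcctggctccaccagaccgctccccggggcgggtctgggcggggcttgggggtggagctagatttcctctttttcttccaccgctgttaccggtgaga

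Counted back from the start, the ACGTG core of Slc2a1 lay at bases 36 to 32, and a GCGTG core on the other strand lay at bases 61 to 57. Pgk1 held ACGTG in both orientations, at bases 150 to 146 and 131 to 127. In Ldha the cores of both strands overlapped in CACGTG, the E-box that other factors also bind, once ending at base 140 and once at base 43, and a further core lay at bases 34 to 30. Pdk1 held a single GCGTG, at bases 78 to 74, and the first windows of Vegfa and Aldoa held none, although later listed starts of both genes did. A match is a description of the letters in a window and not a binding site.

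None of the 10 genes passed an adjusted test of the difference between the genotypes. In edgeR's quasi-likelihood test 0 of the 10 passed a Benjamini-Hochberg adjusted p below 0.05, against 0.165% of all genes tested, and every one of them had an adjusted p of 0.9997. By unadjusted p below 0.05 the count was also 0, against 3.13% of all genes, and DESeq2 called 0 by adjusted p, against 0.415% of all genes, and 1, Vegfa with an unadjusted p of 0.0489, without adjustment, against 2.28%. The WT and Dp1Tyb values overlapped for all 10, whereas 1.36% of all genes had groups that did not overlap. All 10 log2 fold changes were above 0, as were 51.0% of those of all genes, and their median was 0.13 against 0.0027 for all genes tested. This direction rested on single cultures. Without Dp1Tyb replicate 2, log2 fold changes of the 9 genes other than Vegfa lay between -0.20 and -0.062, and without WT replicate 1 those of 7 genes were below 0.

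**Figure D1:**
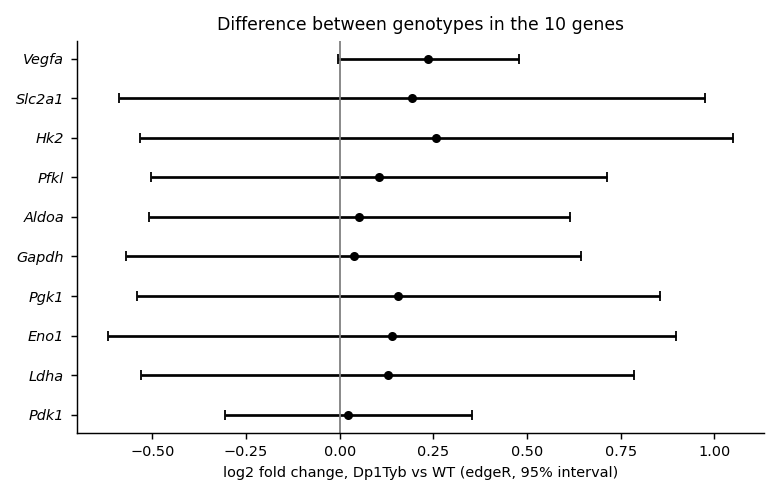
Log2 fold change of each gene in Dp1Tyb against WT on the horizontal axis, with points for edgeR's estimate and bars for its 95% interval (4 WT and 5 Dp1Tyb cultures). Every interval includes 0, and those of Vegfa and Pdk1 are the narrowest.

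Levels of most of the 10 genes were spread widely over the cultures, within each genotype too. From the lowest to the highest culture, the 8 genes of glucose uptake, glycolysis and lactate production differed by 2.48-fold for Aldoa to 3.68-fold for Slc2a1. Within WT alone the fold for these 8 was 1.94 to 2.59 and within Dp1Tyb alone 1.97 to 3.14. Over all cultures Vegfa differed by only 1.51-fold and Pdk1 by 1.59-fold. The SD between cultures of a genotype, on the log2 scale, had a median of 0.48 over the 10 genes, against 0.20 over all genes tested and 0.15 over the 5742 genes with a mean level of at least 31.6 CPM, that of the lowest of the 10. By this SD the 8 genes lay between the 84.2nd and the 92.4th percentile of all genes, Pdk1 at 60.4 and Vegfa at 39.3. In bulk RNA, fewer cells of a type and less RNA per cell cannot be told apart.

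**Figure D2:**
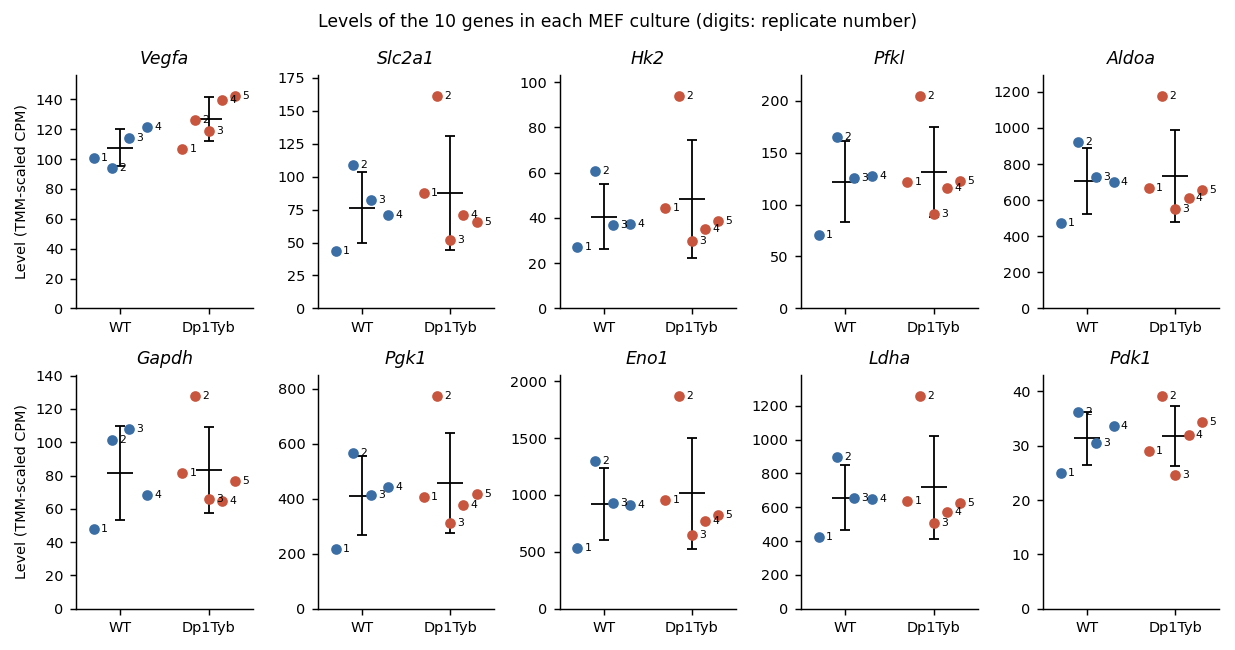
Levels in TMM-scaled CPM (vertical axes, starting at 0) of each gene in 4 WT (blue) and 5 Dp1Tyb (red) cultures, with the replicate number beside each point and black bars for the mean and SD. Dp1Tyb replicate 2 is the highest culture for 9 of the 10 genes and WT replicate 1 the lowest for 8, and the groups overlap in every panel.

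Vegfa (ENSMUSG00000023951, chromosome 17, 46016993 to 46032369, minus strand, GRCm38), the secreted growth factor that drives the growth of blood vessels, was the gene nearest to a difference. Its levels were 101, 94.3, 114 and 121 CPM in WT replicates 1 to 4. In Dp1Tyb replicates 1 to 5 they were 107, 126.01, 119, 139 and 142 CPM. The 3 highest cultures were Dp1Tyb and the 2 lowest were WT, but Dp1Tyb replicates 1 and 3 lay within the WT range. Means were 108 ± 12.3 (SD, n = 4) and 127 ± 14.7 CPM (SD, n = 5), and the log2 fold change was 0.24 (SE 0.108, 95% interval -0.0057 to 0.48), or between 0.996-fold and 1.39-fold. The exact permutation test over all relabelings of the genotypes gave p = 0.0873, two-sided, and within MEF2 the difference was 0.26 with an exact p of 0.0857 over 35 relabelings. Its estimate stayed between 0.18 and 0.31 in every alternative tried.

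Slc2a1 (ENSMUSG00000028645, chromosome 4, 119108711 to 119137983, plus strand), the glucose transporter GLUT1, varied most between cultures. The WT values were 43.8, 109, 82.4 and 70.6 CPM. Among Dp1Tyb cultures it stood at 87.9, 161, 51.6, 71.0 and 65.4 CPM. Dp1Tyb replicate 2 lay above all other cultures, and the other 4 Dp1Tyb cultures lay inside the WT range. The log2 fold change was 0.19 (SE 0.35, interval -0.59 to 0.98) with an exact permutation p of 0.73. Its direction was not the same under both name prefixes. Dp1Tyb replicate 1 exceeded WT replicate 1 by 1.00 on the log2 scale within MEF1, while the difference of the mean log2 levels within MEF2 was -0.12 (exact p = 0.80). By these same measures Pfkl, Aldoa, Gapdh, Pgk1, Eno1, Ldha and Pdk1 were also above 0 within MEF1 and below 0 within MEF2.

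Hk2 (ENSMUSG00000000628, chromosome 6, 82725025 to 82774454, minus strand) encodes hexokinase 2, which traps glucose in the cell as glucose 6-phosphate. It was measured at 27.0, 61.0, 36.7 and 37.4 CPM in WT and at 44.5, 94.0, 29.9, 34.9 and 38.9 CPM in Dp1Tyb. The same 2 cultures were highest and lowest as for Slc2a1. Its log2 fold change of 0.26 was the largest of the 10 and its interval also among the widest, from -0.53 to 1.05, which covers folds from 0.691 to 2.07 (exact permutation p = 0.651).

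Pfkl (ENSMUSG00000020277, chromosome 10, 77986947 to 78010083, minus strand) is the liver-type subunit of phosphofructokinase, the main control point of glycolysis. Its human counterpart lies on chromosome 21, but mouse Pfkl lies outside the duplicated region, as do the other 9 genes, so both genotypes carry the same number of copies. The 4 WT cultures gave 70.2, 165, 125 and 127 CPM and the 5 Dp1Tyb cultures 122, 205, 91.3, 116 and 122 CPM. Apart from the extremes, values in the genotypes were interleaved, and the log2 fold change was 0.11 (interval -0.50 to 0.71, exact permutation p = 0.786). An increase of 1.64-fold or more lay outside the interval.

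Aldoa (ENSMUSG00000030695, chromosome 7, 126795234 to 126800751, minus strand), the aldolase that splits fructose 1,6-bisphosphate, had 475, 924, 730.3 and 698 CPM in WT. Its Dp1Tyb levels were 665, 1178, 553, 611 and 658 CPM. Without the highest and lowest cultures the range was narrow, 553 to 924 CPM. The log2 fold change was 0.053 (interval -0.51 to 0.61, exact permutation p = 0.905).

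Gapdh (ENSMUSG00000057666, chromosome 6, 125161715 to 125166467, minus strand), the dehydrogenase often used as a reference gene, stood at 47.9, 102, 108 and 68.2 CPM in WT. In Dp1Tyb it stood at 81.3, 128, 66.1, 64.8 and 77.0 CPM. Unlike the other 7 genes of uptake, glycolysis and lactate production, it was higher in WT replicate 3 than in WT replicate 2. The fold between its highest and lowest cultures was 2.67, and the log2 fold change between the genotypes was 0.037 (interval -0.57 to 0.64, exact permutation p = 0.857).

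Pgk1 (ENSMUSG00000062070, X chromosome, 106187100 to 106203699, plus strand), phosphoglycerate kinase, makes the first ATP of the pathway. Levels of 219, 567, 415 and 441 CPM were found in WT. Dp1Tyb cultures had 407, 773, 312, 379 and 418 CPM. WT replicate 1 lay well below the rest, and the 3.53-fold range was the second widest of the 10. The genotype difference was 0.16 on the log2 scale (interval -0.54 to 0.85, exact permutation p = 0.714).

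Eno1 (ENSMUSG00000063524, chromosome 4, 150236721 to 150248879, plus strand), the enolase that makes phosphoenolpyruvate, had the most counts of the 10. Its WT values were 535, 1301, 928 and 915 CPM, and its Dp1Tyb values 952, 1868, 651, 772 and 819.9 CPM. Both replicates numbered 2 lay above all other cultures. With a log2 fold change of 0.14 (interval -0.62 to 0.90), the exact permutation p was 0.786.

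Ldha (ENSMUSG00000063229, chromosome 7, 46841475 to 46855627, plus strand) encodes the lactate dehydrogenase subunit that turns pyruvate into lactate. It was counted at 424, 898, 657 and 651 CPM in WT and at 634, 1257, 507, 569.9 and 626 CPM in Dp1Tyb. The order of the cultures was close to that of Eno1. The log2 fold change was 0.13 (interval -0.53 to 0.79, exact permutation p = 0.802).

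Pdk1 (ENSMUSG00000006494, chromosome 2, 71873224 to 71903858, plus strand) encodes a kinase that switches off pyruvate dehydrogenase. WT cultures gave 24.98, 36.3, 30.5 and 33.6 CPM. The Dp1Tyb cultures gave 29.1, 39.1, 24.5, 32.0 and 34.4 CPM. The same cultures as for Ldha were at the top, over a much shorter range, and the lowest was Dp1Tyb replicate 3. Its log2 fold change was 0.023 with an interval of -0.31 to 0.35 (exact permutation p = 0.897).

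Per kilobase of exon, mean levels were highest for Aldoa (248 CPM per kilobase), Ldha (209), Pgk1 (195) and Eno1 (181). Ranges of these 4 over the cultures overlapped, so their order is not firm. Next came Vegfa (27.6), Slc2a1 (23.6), Gapdh (20.0) and Pfkl (19.0), which also overlapped, and then Hk2 (7.52) and Pdk1 (4.06 CPM per kilobase). For Gapdh, Pgk1 and Eno1 these levels are uncertain, because much of their sequence recurs elsewhere and the authors discarded reads that aligned to several places. Of the 100-base windows of the longest coding transcript, 78.0% in Gapdh, 67.0% in Pgk1 and 59.0% in Eno1 were identical to part of another annotated gene, mostly processed pseudogenes. With up to 2 differing bases allowed, the share was 79.0% in Gapdh, 85.0% in Eno1 and 28.6% in Ldha. It was 4.83% in Aldoa and 0.00% in Vegfa, Slc2a1, Hk2, Pfkl and Pdk1. One Gapdh pseudogene, Gm12070, itself had 11519 counts, a mean of 49.2 CPM. Genes on the opposite strand overlap Slc2a1, Hk2, Aldoa and Gapdh, and since the strand setting of the counting is not given in the sources used here, reads of the partners may be among their counts.

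**Figure D3:**
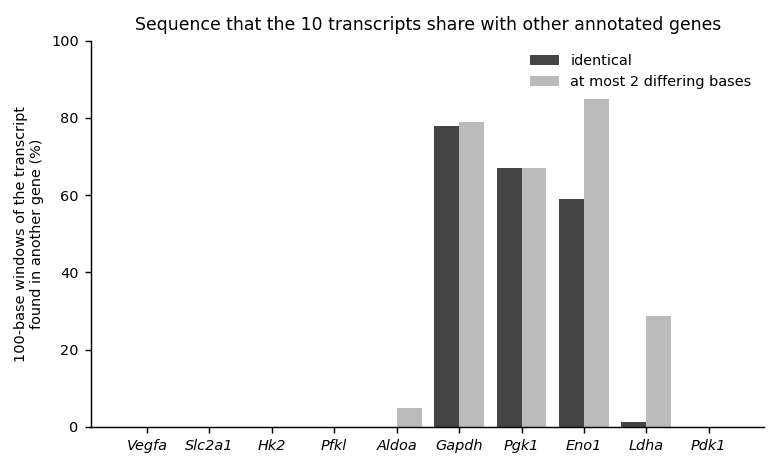
Percent of the 100-base windows of each gene's longest coding transcript that recur in another annotated gene (vertical axis, 0 to 100%), for identical windows (dark bars) and for windows with at most 2 differing bases (light bars). Gapdh, Pgk1 and Eno1 share most of their sequence, Ldha 28.6% with mismatches, and 5 of the 10 genes share none.

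Across the 9 cultures the levels of the 8 genes ran in parallel. Dp1Tyb replicate 2 was the highest and WT replicate 1 the lowest culture for 8 of the 10 genes, a combination seen in 14.1% of all genes tested. Together the 8 genes took 0.195% of all counts in WT replicate 1 and 0.545% in Dp1Tyb replicate 2. In the other 7 cultures their share was between 0.225% in Dp1Tyb replicate 3 and 0.409% in WT replicate 2. The genotypes overlapped in this share, with WT at 0.195%, 0.301%, 0.313% and 0.409% and Dp1Tyb at 0.225%, 0.253%, 0.278%, 0.306% and 0.545%.

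**Figure D4:**
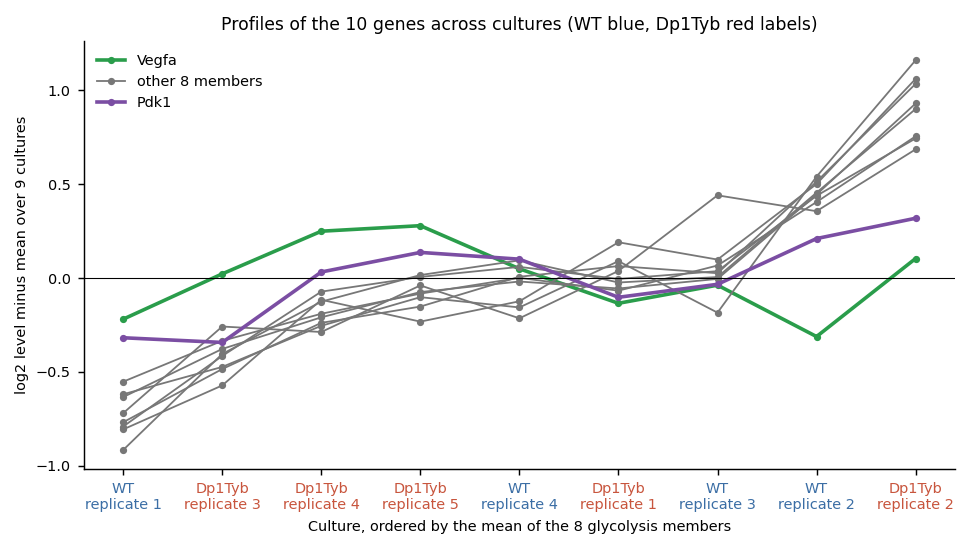
Log2 level of each gene minus its mean over the 9 cultures (vertical axis), with cultures placed from left to right by the mean of the 8 glycolysis genes, WT labels in blue and Dp1Tyb labels in red. The 8 grey lines climb together from WT replicate 1 to Dp1Tyb replicate 2, Pdk1 (purple) climbs less, and Vegfa (green) follows another course.

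Of the 45 pairs among the 10 genes, 26 had a Pearson r above 0.9 across the cultures, and the median r was 0.914. In the 28 pairs without Vegfa and Pdk1, r ran from 0.837 (Hk2 and Gapdh) to 0.997 (Pfkl and Pgk1). These values describe 9 libraries that each contribute to every gene, with a pseudocount of 0.5 CPM before the log. Against Eno1, the gene with the most counts, r was 0.986 for Slc2a1, 0.976 for Hk2, 0.975 for Pfkl, 0.993 for Aldoa, 0.976 for Pgk1 and 0.994 for Ldha. Spearman's rho for these 6 was between 0.850 and 0.950, and their exact permutation p was at most 0.000179 for r and 0.00607 for rho, among 9 relations with Eno1 computed. Without WT replicate 1 and Dp1Tyb replicate 2, the cultures farthest from the median of Eno1, r for the 6 was still between 0.946 and 0.980. Within MEF2 it was between 0.981 and 0.998. Of all genes tested, 6.25% had r above 0.9 with Eno1 over the 9 cultures, and 2.57% did without the 2 cultures. Such values were thus not particular to the 10 genes, and the p-values, each for a single relation, do not set them apart.

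Gapdh and Pdk1 followed Eno1 less closely. For Gapdh r was 0.901 and rho 0.917 (exact permutation p = 0.000953 and 0.00131), and r was 0.726 without the same 2 cultures. For Pdk1 r was 0.852 and rho 0.700 (exact permutation p = 0.00376 and 0.0433), and r was 0.701 without them. Much of the sequence of Gapdh, as of Pgk1 and Eno1, recurs in other genes. What part the discarded reads have in the r of Gapdh was not tested. Vegfa did not follow Eno1, with r = -0.007 and rho = -0.117 (exact permutation p = 0.986 and 0.776), and within MEF2 r was -0.331. Without the 2 cultures its r was -0.722, so that the value rested on them, and over all cultures its r with the other 9 genes was at most 0.266, with Pdk1.

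Set against the mean of the other 7 glycolysis genes of the same culture, each of the 8 was far steadier than its own level. This restates their correlation over the same 9 libraries and is not a further result. The SD between cultures went from 0.49 to 0.065 (log2) for Ldha, from 0.56 to 0.084 for Eno1 and from 0.59 to 0.15 for Slc2a1. Gapdh kept the largest, 0.22. No difference between the genotypes was detected in these ratios. For the 8 genes Dp1Tyb minus WT was between -0.089 for Aldoa (exact permutation p = 0.238) and 0.086 for Hk2 (exact p = 0.484). For Vegfa and Pdk1 the ratio, taken to the mean of all 8, was less steady than the level itself, with SDs of 0.54 against 0.17 and of 0.32 against 0.24.

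Genes with the most similar profile were looked for among all genes tested, by Pearson r over the 9 cultures. For Eno1 they were Pkm, the pyruvate kinase (r = 0.997), Nipal1 and Ldha, and for Pfkl they were Slc16a3, which exports lactate (0.997), Pgk1 and Ccnyl1. Aldoa was nearest to Ldha (0.996), Txn1 and Esd, and Ldha to Aldoa, Cdk17 and Nipal1. Slc2a1 was nearest to Pcolce2 (0.994), Mob3a and Has2, the latter a hyaluronan synthase, and Hk2 to Dusp14, Actr3 and Stip1 (0.992 each). For Gapdh the nearest genes were Ube2s (0.980), Rac1 and Micall2, and for Pgk1 they were Gm10566, Pfkl and the Gapdh pseudogene Gm12070 (0.996). Pdk1 was nearest to Cpe (0.977), 1700056E22Rik and Pxylp1, and Vegfa to the homeobox gene Hoxb4 (0.965), Hsdl2 and Gm24119. With 9 cultures and 14567 genes such values are a description, and by Spearman's rho only 2 of the 30 places held the same gene.

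Other enzymes of glycolysis followed the 8 genes in part. Of 20 listed, 14 were tested in edgeR and 19 were in the DESeq2 fit, and 0 passed the adjusted test in either tool. Without adjustment 1 of 14 passed in edgeR, against 3.13% of all genes, and 1 of 19 in DESeq2, against 2.28%. Of the 14, 6 had r above 0.9 with Eno1 (42.9%, against 6.25% of all genes), namely Hk1, Gpi1, Pfkp, Tpi1, Pgam1 and Pkm. Others lay far from this, with r of 0.422 for Pfkm, -0.203 for Aldoc and -0.719 for Hk3, and the median of the 14 was 0.858. Pkm, the most abundant of them, ran from 955 CPM in WT replicate 1 to 3253 CPM in Dp1Tyb replicate 2. Tpi1 ran from 255 to 587 CPM and Pgam1 from 99.6 to 262 CPM between the same cultures. Without those 2 cultures r was still 0.991 for Pkm, 0.970 for Gpi1, 0.944 for Pgam1 and 0.941 for Tpi1, and for 2.57% of all genes it exceeded 0.9. Eno2, the neuronal enolase, stood at 72.0, 54.6, 64.3 and 47.4 CPM in WT and at 49.2, 35.6, 49.6, 46.3 and 48.8 CPM in Dp1Tyb, with a log2 fold change of -0.38 (interval -0.68 to -0.07, unadjusted p = 0.022 in edgeR's quasi-likelihood fit). Its r with Eno1 was -0.650 over all cultures and 0.393 without the 2 extreme ones. Hk3 (0.60, interval -1.41 to 2.60), Pgam2 (-0.56) and Eno1b (0.21) had the other largest log2 fold changes, at low levels.

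Among the regulators of HIF the range over the cultures went from 1.22-fold for Rbx1 to 3.44-fold for Egln3. Of 16, 15 were tested in edgeR and all 16 were in the DESeq2 fit, and in each tool 0 passed the adjusted test. Without adjustment 1 of 15 passed in edgeR, against 3.13% of all genes, and 1 of 16 in DESeq2, against 2.28%. Hif1a, the alpha subunit made in most cells, was measured at 306, 348, 319 and 399 CPM in WT and at 348, 352, 320.2, 388 and 370.0 CPM in Dp1Tyb. Its level in the culture with the highest glycolysis genes was thus in the middle of its own range, and its r with Eno1 was 0.293. This is the level of the RNA, whereas oxygen acts on the stability of the protein. Epas1, which encodes HIF-2 alpha, gave a log2 fold change of 0.43 (interval -0.06 to 0.91) at 4.02 to 9.83 CPM, and the partner Arnt2 gave -0.39 (interval -0.77 to -0.0043, unadjusted p = 0.0479 in edgeR). Of the hydroxylases, Egln3 gave 0.54 (interval -0.15 to 1.24) and Egln2 -0.15. Egln1, itself a known target of HIF, had r = 0.944 with Eno1 over 46.6 to 67.8 CPM, and Eloc, a part of the VHL complex, 0.940, but in neither was r above 0.9 without the 2 extreme cultures. Elob, the partner of Eloc in that complex, lay between 94.8 and 170.2 CPM. Other regulators ran opposite to Eno1, with r of -0.898 for Arnt, -0.816 for Crebbp, -0.752 for Vhl and -0.745 for Ep300. Each of these was highest in WT replicate 1 and lowest in Dp1Tyb replicate 2. How far their r rested on these 2 extreme cultures is not reported here. The median r of the 15 tested was 0.209.

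Among 30 other targets of HIF, 0 passed the adjusted test in either tool. Without adjustment 1 of 30 passed in each, a share near the 3.13% of all genes in edgeR and the 2.28% in DESeq2. With Eno1, 7 of the 30 (23.3%) had r above 0.9 and 5 (16.7%) still did without the 2 extreme cultures, against 6.25% and 2.57% of all genes. Among the 5 were Fam162a (0.988), Higd1a, Slc16a3 and Tfrc, the transferrin receptor, and the other 2 of the 7 were Bnip3 and Mif. The median r of the 30 was 0.692. Just below 0.9 lay Ankrd37 (0.877), Pfkfb3 (0.871) and P4ha1 (0.862). Lower values of r were 0.297 for Lox, which crosslinks collagen, 0.272 for Ddit4, -0.255 for Ndrg1, 0.075 for Kdm3a and -0.913 for Vldlr. The largest log2 fold changes between the genotypes were -0.47 for Stc2, -0.44 for Car9, -0.41 for Hmox1 and 0.32 for Car12, and of these Car9, a carbonic anhydrase, had an unadjusted p of 0.0326 in edgeR, at 1.93 to 3.76 CPM.

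**Figure D5:**
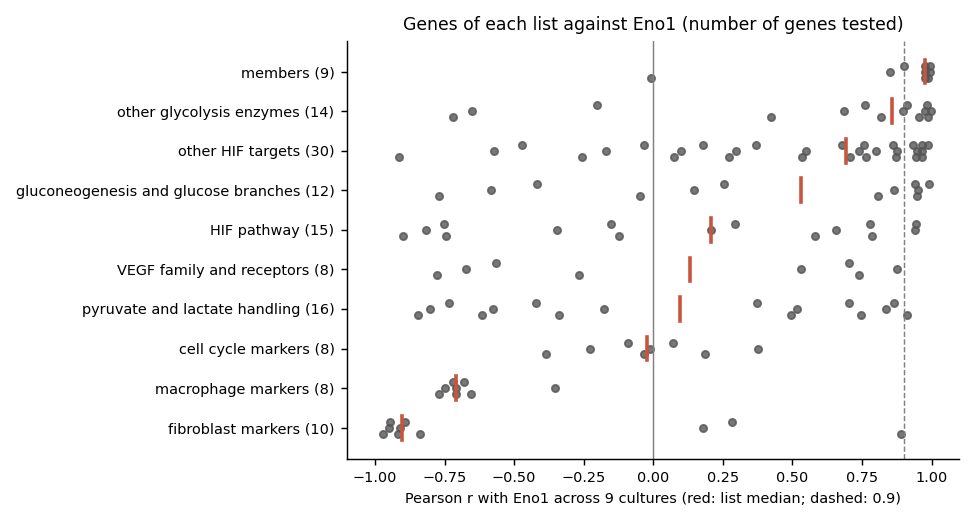
Pearson r with Eno1 across 9 cultures (horizontal axis) of each tested gene of 10 lists, with the number of genes in brackets, red bars for list medians and a dashed line at 0.9. The members other than Vegfa lie between 0.852 and 0.994, the other glycolysis enzymes run from -0.719 to 0.997, HIF regulators and pyruvate genes are also spread over both signs, and most fibroblast and macrophage markers lie below 0.

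Genes of pyruvate and lactate handling had r with Eno1 on both sides of 0. Of 17, 16 were tested in edgeR and all 17 were in the DESeq2 fit, and 0 passed either test in either tool. The median r of the 16 with Eno1 was 0.0963, and Pdhb alone exceeded 0.9 (0.912), followed by Dlat (0.866) and Pdk4 (0.836). For Pdhb r was 0.792 without the 2 extreme cultures. Pdha1, the catalytic subunit of pyruvate dehydrogenase, was between 221 and 258 CPM in every culture. Ldhb, the partner subunit of Ldha, was between 33.5 and 52.9 CPM and gave a log2 fold change of -0.22 (interval -0.47 to 0.02). Its r was 0.517, and 0.888 without the 2 extreme cultures. Dld lay between 86.5 and 105 CPM. The phosphatase Pdp1 gave -0.31, Slc16a7 -0.22 and the kinase Pdk2 -0.18, and the r of Pdk2 with Eno1 was -0.847. That value rested on the 2 extreme cultures, without which it was 0.0334.

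The branches of glucose metabolism were mixed. Among 15 genes 12 were tested in edgeR and 15 were in the DESeq2 fit, and 0 passed the adjusted test in either tool. Without adjustment 1 passed in each tool, against 3.13% of all genes in edgeR and 2.28% in DESeq2. In edgeR's quasi-likelihood fit this was Gpd1, with a log2 fold change of -0.82 at less than 1 CPM. The pentose phosphate genes G6pdx, Pgd, Tkt and Taldo1 had r of 0.942, 0.991, 0.947 and 0.950 with Eno1, and Pgd (98.4 to 247 CPM) kept 0.965 without the 2 extreme cultures. Without them r was 0.853 for G6pdx, 0.828 for Tkt and 0.797 for Taldo1. Tigar, a phosphatase that lowers the flow through glycolysis, lay between 12.8 and 25.2 CPM. Pck2, which runs towards glucose, had -0.771 and was lowest, at 91.1 CPM, in Dp1Tyb replicate 2.

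The other ligands and receptors of the VEGF system passed no test between the genotypes. Of 9 listed, 8 were matched and tested, and 0 passed either test in either tool. Vegfb (22.7 to 34.8 CPM) and Vegfc (11.99 to 21.96 CPM) had log2 fold changes of -0.13 and -0.21, and Pgf had 0.25 at 1.71 to 4.79 CPM. The co-receptors Nrp1 and Nrp2 were at 144 to 260 and 194 to 281 CPM. Flt4, a receptor of lymphatic vessels, gave 0.47 (interval -0.80 to 1.74) and ran from 3.96 CPM in WT replicate 1 to 61.2 CPM in Dp1Tyb replicate 2.

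Markers of several cell types differed between the same cultures. The 10 fibroblast markers were all tested and summed to 39600 to 66100 CPM, so that the defining markers of the labelled cell type were present, and the 5 with r below -0.9 with Eno1 were the collagens Col1a1, Col1a2 and Col3a1, the proteoglycan Dcn and the receptor Pdgfrb, against 4.93% of all genes. Of the other 5, Pdgfra (-0.894) and Lum (-0.838) also ran opposite to Eno1, whereas Vim, the intermediate filament vimentin, had r = 0.890, Fn1 0.281 and Thy1 0.179. Dp1Tyb replicate 2 had the lowest Col3a1 (2190 CPM, against up to 10700 CPM in WT replicate 1) and the lowest sum of fibroblast markers. Macrophage markers had a median r of -0.708 with Eno1, and their sum ran from 17.2 CPM in Dp1Tyb replicate 2 to 318 CPM in Dp1Tyb replicate 3 and from 60.7 to 228 CPM in WT, with none of the 8 at 0. Of the 8 skeletal muscle markers, Myod1, Myog and Ckm had too few counts to be tested. Acta1, a muscle actin, ran from 2.04 to 223 CPM with r = 0.984, but r was 0.237 for Mylpf, 0.190 for Myh3, 0.024 for Des and -0.369 for Tnnt1. Between the genotypes, Des (6.70 to 38.1 CPM) had a log2 fold change of 1.35 (interval 0.60 to 2.10) and Myh3 (at most 1.15 CPM) one of 3.30 (interval 1.78 to 4.82), and both were called by DESeq2 and neither by edgeR's adjusted test. The 8 cell cycle markers had a median r of -0.022, and erythroid markers were nearly absent, with at most 0.224 CPM in sum. Epithelial markers summed to 8.34 to 21.7 CPM and endothelial markers to 5.42 to 19.1 CPM. Schwann and neural crest markers summed to 30.7 to 66.0 CPM in WT and 9.63 to 29.8 CPM in Dp1Tyb. These sums, taken without TMM factors, did not overlap, by a narrow margin. Of single genes tested, 1.36% had groups that did not overlap. With Eno1 the median r of the Schwann and neural crest markers was -0.319. In edgeR 0 of the 5 tested passed the adjusted test and 4 passed without adjustment, against 3.13% of all genes. Among the 4 were Foxd3, Sox10 and Erbb3 with log2 fold changes of -1.79, -1.71 and -1.56. The remaining tested marker, S100b, had a log2 fold change of 0.15 (interval -0.85 to 1.15) and r = 0.683 with Eno1. DESeq2 called Sox10, Foxd3 and Erbb3, 3 of 6, against 0.415% of all genes. No marker outside the muscle and Schwann lists passed the adjusted test in either tool. What part the cell makeup has in the spread of the glycolysis genes was not tested.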

How the data were processed

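RNA from 4 WT and 5 Dp1Tyb MEF cultures was sequenced with a stranded mRNA kit in 100-base paired reads. The authors trimmed adapters with Trim Galore, mapped reads to GRCm38 with TopHat2 2.0.12, discarded reads aligned to several places and deposited raw counts per Ensembl gene from htseq-count, the only values used. Its strand setting and annotation release are not given in the sources used here. The authors' rescaled counts and their DESeq2 comparison (mean, log2 fold change, standard error, statistic, p-value and adjusted p-value) were not used.

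Gene symbols and positions came from GENCODE M21 (GRCm38). Tests used edgeR 4.0.16 in R 4.3.3 (TMM, filterByExpr, quasi-likelihood test, two-sided, no covariate, Benjamini-Hochberg over 14567 genes, threshold 0.05), tested on simulated data before use. The study itself used DESeq2, run here (1.42.0) as an alternative. Intervals are 95%. Single genes were also tested by exact permutation of log2(CPM + 0.5) over all 126 relabelings of the genotypes, or all 35 within MEF2, and correlations by exact permutation of the cultures. Levels per kilobase used the summed length of all exons. Other values and figures were computed in Python 3.11.15 (numpy 2.4.6, pandas 2.3.3, scipy 1.17.1, matplotlib 3.10.9).

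The 10 genes and all lists were chosen with earlier results of these data known. Named from each pathway list were genes past the adjusted threshold, up to 4 with the largest absolute log2 fold change and up to 3 with the highest level per kilobase, and for each of the 10 genes the 3 most similar by Pearson r. List genes named for their r with Eno1, and single markers, were chosen after their values were seen. One listed VEGF gene was not matched by its symbol. Values of some further listed genes are not reported here, and they are counted in their lists. Alternatives were other size factors, tests, filters and thresholds, the name prefix as a covariate, MEF2 alone, the replicate number as a block, each culture left out and other measures of similarity.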

Additional observations from a re-analysis of the deposited data

Results flagged for a closer look

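In the 5 Dp1Tyb cultures, replicate 2 lay far from the other 4 on the log2 scale for a pair of the 10 genes. Its Aldoa level was 1178 CPM, and the log2 gap to the nearest Dp1Tyb culture was 0.755 of the whole log2 range of the group. Its Ldha level was 1257 CPM, with a gap of 0.754 of the log2 range. Both gaps exceeded Dixon's 95% critical value for 5 values. Gaps taken in CPM would differ, and so would the number of genes past this value. Chance gives such a gap in about 1 in 20 groups, and the levels of these genes are not independent of each other (r = 0.996 across the 9 cultures).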

How the results depend on the processing

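None of the 10 genes was called under any alternative, and the lowest adjusted p of any of them was 0.88. Of 180 estimates under alternatives, 152 kept their sign and 28 changed it, none of them past the threshold. Vegfa stayed above 0 throughout. Within MEF2 alone log2 fold changes were below 0 for Slc2a1 (-0.0019), Pfkl (-0.060), Aldoa (-0.064), Gapdh (-0.14), Pgk1 (-0.013), Eno1 (-0.029) and Pdk1 (-0.041) and above 0 for Vegfa (0.26), Hk2 (0.13) and Ldha (0.0091). With single cultures left out, estimates ran from -0.15 to 0.42 for Slc2a1, -0.13 to 0.52 for Hk2, -0.11 to 0.29 for Pfkl, -0.18 to 0.21 for Aldoa, -0.17 to 0.20 for Gapdh, -0.12 to 0.35 for Pgk1, -0.20 to 0.35 for Eno1, -0.17 to 0.32 for Ldha and -0.070 to 0.10 for Pdk1. The lowest of these came without Dp1Tyb replicate 2, except that of Pdk1, which came without WT replicate 1. Over all genes, 24 calls became 68 with DESeq2, 1 within MEF2, 2 at an adjusted p below 0.01 and between 2 (without WT replicate 2 or 3) and 26 (without Dp1Tyb replicate 2) with single cultures left out. With the replicate number as a block, 0 genes were called and Pdk1 was at -0.013. The numbers were not taken to pair the cultures: same-numbered cultures correlated in their deviations by 0.308, 0.766, 0.037 and 0.367, and 1 of 4 WT cultures correlated best with its own number. Leaving out both replicates numbered 2, chosen after seeing the data, gave 10 calls, -0.029 for Aldoa and -0.043 for Gapdh, a median SD of 0.30 in place of 0.48 and 16 pairs with r above 0.9 in place of 26. Of the 30 most similar genes, 2 were kept by Spearman's rho and 16 by r on deviations from the genotype means. The cause of these shifts was not tested beyond the samples each setting removes.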

Other observations

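The labels do not give the sex of the embryos, and Pgk1 is on the X chromosome. Xist, the RNA that coats the inactive X chromosome, was at 1080, 692 and 634 CPM in WT replicates 1 and 4 and Dp1Tyb replicate 5, where the Y-linked Ddx3y was at 0.660, 0.379 and 0.616 CPM. Ddx3y was between 71.7 and 100.0 CPM in WT replicates 2 and 3 and Dp1Tyb replicates 1, 2 and 3, where Xist was at 3.82 to 8.78 CPM. Dp1Tyb replicate 4 had neither, with 3.92 CPM of Xist and 0.50 CPM of Ddx3y, and the Y-linked Eif2s3y, Kdm5d and Uty were at 0.250, 0.125 and 0.0833 CPM there. Relative to the mean of the other 7 glycolysis genes, its Pgk1 was at 1.11 on the log2 scale, within the range of the other 8 cultures (0.82 to 1.20). Among the cultures with Ddx3y, the 8 glycolysis genes took 0.409% and 0.313% of counts in WT replicates 2 and 3. In Dp1Tyb replicates 1, 2 and 3, also with Ddx3y, they took 0.306%, 0.545% and 0.225%. Among the cultures with Xist the share was 0.195% and 0.301% in WT replicates 1 and 4 and 0.278% in Dp1Tyb replicate 5. Dp1Tyb replicate 4, with neither, had 0.253%. The highest shares were thus in cultures with Ddx3y, but so was that of Dp1Tyb replicate 3, the second lowest. What part sex has in this share was not tested.

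Genes that ran opposite to Eno1 most closely were Igsf3 (r = -0.991), Nkd1 (-0.988), a regulator of WNT signalling, Gpr155 (-0.987), Bicc1 (-0.986) and Rhbdl3 (-0.986), at mean levels of 3.57 to 143 CPM. Such values are a description over the same 9 libraries.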
